A study of Mus musculus with 17 samples.

Results

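The 10 genes Slc2a1, Hk1, Hk2, Pfkl, Pfkp, Aldoa, Pgk1, Pkm, Ldha and Slc16a1 code for a glucose transporter, for enzymes of glycolysis, for a lactate dehydrogenase subunit and for a lactate transporter. They were chosen by name, with no measured value in the rule, and make up 10 of the 26029 genes counted in model 1 and of the 24659 counted in model 2. Aldoa had 2 rows under its name, which gave 11 rows in each table. The second Aldoa row held between 4 and 95 counts per library, so Aldoa stands below for the main row. All 10 genes passed the filter on low counts in both models.

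RNA was sequenced from erythroid blasts of TgSpi1 mice, which carry a transgene for the transcription factor Spi1 (PU.1). Preleukaemic blasts need erythropoietin (EPO) and leukaemic blasts do not. The libraries of these stages came from different mice. The paper reports that TgSpi1 mice with an intact Fanca gene seldom become leukaemic on their own, whereas leukaemia arose spontaneously in those lacking it. FA+/+ and FA-/- stand for mice with an intact and with a deleted Fanca gene, which codes for a protein of the Fanconi anaemia DNA repair pathway. The 10 libraries of model 1 (strain DBA2JxFVB/N) came from TgSpi1FA+/+ preleukaemic mice, n = 4, titled preleukemic_138, preleukemic_445, preleukemic_451 and preleukemic_479, from TgSpi1FA-/- preleukaemic mice, n = 3, titled preleukemic_40, preleukemic_77 and preleukemic_224, and from TgSpi1FA-/- leukaemic mice, n = 3, titled leukemic_26, leukemic_28 and leukemic_39. Those of model 2 (strain DBA2J) came from TgSpi1FA+/+ preleukaemic mice, n = 4, titled preleukemic_633, preleukemic_663, preleukemic_812 and preleukemic_837, and from TgSpi1FA+/+ leukaemic mice, n = 3, titled leukemic_601, leukemic_606 and leukemic_921, whose leukaemias arose after serial blood transfusion. Values of a group are given in this order throughout. Every mouse carried the transgene, so no group is of normal erythroid cells, and all blasts were grown with EPO. By the labels each mouse gave 1 library, so p-values measure the spread between mice as far as the labels hold. A doubt about preleukemic_445 and preleukemic_479 is given below. Strain, RNA input (400 ng in model 1 and 300 ng in model 2) and fragmentation time (8 min and 2 min) all changed with the model, so these cannot be told apart from it and levels are compared within a model. In bulk RNA, fewer cells with a transcript and less transcript per cell cannot be told apart.

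Library totals lay between 29964576 and 38217654 counts in model 1 and between 37726753 and 40514205 in model 2. Levels are given as CPM, the count of a gene scaled to a common library size. The 10 genes took between 0.356% and 0.652% of the counts in model 1 and between 0.477% and 1.53% in model 2. Fanca lay between 28.2 and 83.5 CPM in the TgSpi1FA+/+ libraries of model 1 and between 0.615 and 2.30 CPM in the TgSpi1FA-/- ones. Of 13 erythroid markers, 8 were at 17.9 CPM or more in all 17 libraries, among them Gata1 at 229 CPM or more and Tfrc at 1215 CPM or more. Alas2, Slc4a1, Hbb-bs and Hbb-bt were as low as 1.69, 1.64, 0.837 and 0.101 CPM in their lowest library, and Hba-a2 was at most 0.131 CPM. Of 12 markers of other lineages, 6 stayed under 1 CPM in every library, among them Cd3e, Cd4, Csf1r, Itgam and Pax5. The myeloid marker Cd68 lay between 1.62 and 9.78 CPM and Itga2b between 3.97 and 243 CPM. Pf4, Fcer1a, Cpa3 and Mcpt8, of platelets, basophils and mast cells, reached 130, 52.6, 31.4 and 5.18 CPM in their highest library. For the TgSpi1FA-/- preleukaemic mice the title says preleukaemic and another label says leukaemic. They were taken as preleukaemic. In the model 1 table the libraries labelled preleukemic_445 and preleukemic_479 were far more alike than any other pair of replicates, the chi-square statistic divided by its degrees of freedom being 9.18 against at least 126. A second table with counts of 7 of these mice did not show this (390 for the same pair). Across 8167 genes, the second-table library of preleukemic_445 was closest to preleukemic_451 of the model 1 table (r = 0.852 against 0.826 with its own number), and that of preleukemic_479 was closest to preleukemic_445 (r = 0.876 against 0.870). The 3 comparisons within model 1 are therefore also given without preleukemic_445. Whether preleukemic_445 and preleukemic_479 came from different mice was not tested. If they did not, tests that use both count a mouse more than once and understate the spread between mice.

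Glycolysis splits glucose into pyruvate in the cytosol and yields a small amount of ATP without oxygen. Hexokinases trap glucose by phosphorylation, phosphofructokinase is the main controlled step, and phosphoglycerate kinase and pyruvate kinase make the ATP. Lactate dehydrogenase turns pyruvate into lactate, which monocarboxylate transporters carry across the membrane. Maturing red cells depend on this pathway, since they lose their mitochondria, and many cancers run it at a high rate.

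In model 1, Hk2, Pfkl, Pkm and Ldha rose and Hk1 fell from TgSpi1FA-/- preleukaemic to TgSpi1FA-/- leukaemic cells. Pkm rose 3.48-fold, Hk2 2.80-fold, Pfkl 1.96-fold and Ldha 1.65-fold, while Hk1 fell to 0.445 of its preleukaemic level. These are 5 of 10 genes called, which required a fold change of at least 1.5 with an adjusted p under 0.05, beside 13.3% of the 13393 genes tested (edgeR quasi-likelihood test with Benjamini-Hochberg adjustment, as for all adjusted p below unless another tool is named). The log2 change was above 0 for 8 of the 10 genes, and its median was 0.82 against -0.0012 for all genes tested. For 8 of the 10 the leukaemic and preleukaemic libraries did not overlap, beside 38.7% of all genes tested. Of these, Slc2a1, Aldoa and Pgk1 were higher in the leukaemic libraries without passing the test. With preleukemic_445 left out of the fit, a choice made after seeing the data, 3 of 10 were called, and Hk1 and Pfkl missed the threshold (adjusted p = 0.0609 and 0.0576).

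In model 2, none of the 10 genes passed the test between leukaemic and preleukaemic TgSpi1FA+/+ cells, beside 0% of the 12970 genes tested. At an unadjusted p under 0.05 the counts were 1 of 10 and 2587 of 12970, and DESeq2's Wald test called 1 of 10 and 478 genes. That gene was Hk1, and it was the 1 gene of the 10 whose leukaemic and preleukaemic libraries did not overlap in model 2, beside 20.1% of all genes tested. The median log2 change of the 10 genes was -0.33 against -0.03 for all genes. The 4 preleukaemic libraries of model 2 lay far apart for most of the genes, preleukemic_837 being the lowest of the 4 for 9 of the 10 genes and preleukemic_633 the highest for 5.

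**Figure D1:**
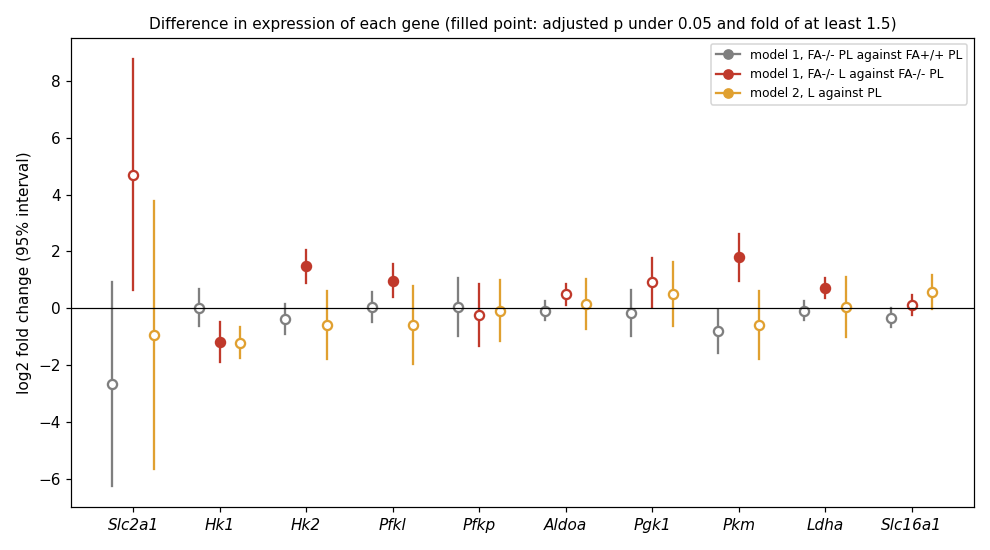
Log2 fold change (points) with its 95% interval (bars) of each gene in 3 comparisons, filled where the gene passed the test. In model 1 the leukaemic change is filled for Hk1, Hk2, Pfkl, Pkm and Ldha, whereas no point of model 2 or of the preleukaemic comparison is filled, and the intervals of Slc2a1 are the widest of the 10 genes.

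Some cell markers changed as well. Of 12 erythroid markers tested in model 1, 10 were lower in the leukaemic libraries, and Klf1, an erythroid transcription factor, and Hbb-bt, an adult beta globin, fell (log2 change -1.27 and -5.94, adjusted p = 0.00626 and 0.0265). The summed level of the 13 erythroid markers lay between 5615 and 6078 CPM in the TgSpi1FA-/- preleukaemic and between 2473 and 5389 CPM in the TgSpi1FA-/- leukaemic libraries. Of the 5 markers of other lineages that were tested, Itga2b, an integrin of megakaryocytes and early progenitors, rose by 3.20 on the log2 scale (adjusted p = 0.00472). Called were thus 2 of 12 erythroid markers and 1 of 5 of other lineages, beside 13.3% of all genes tested. The summed level of the 12 markers of other lineages in the tables went from between 34.4 and 53.1 CPM to between 177 and 251 CPM. In these leukaemic libraries Itga2b alone lay between 92.8 and 243 CPM. The sums of the TgSpi1FA+/+ preleukaemic libraries, between 50.5 and 195 CPM, overlapped the leukaemic ones. In model 2 the erythroid sums lay between 5449 and 10409.5 CPM in preleukaemic and between 3544 and 5912 CPM in leukaemic libraries, and those of other lineages between 37.6 and 119 CPM and between 80.3 and 174 CPM. Their part in the changes of the glycolysis genes was not tested.

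Slc2a1 codes for the glucose transporter GLUT1 (chr4:119108711-119137983, plus strand, GRCm38). In model 1 it stood at 59.2, 45.2, 0.288 and 40.5 CPM in the TgSpi1FA+/+ preleukaemic libraries. The second table gave 49.9, 0.888, 0.338 and 14.5 CPM under the same mouse numbers, so the level of preleukemic_445 is uncertain. In the model 1 table Slc2a1 stood at 16.7, 0.197 and 0.497 CPM in the TgSpi1FA-/- preleukaemic libraries. The TgSpi1FA-/- leukaemic libraries had 199, 119 and 135 CPM. The leukaemic libraries were thus the highest of model 1 and did not overlap with either preleukaemic group. Nonetheless the log2 change of 4.70 ± 1.80 (SE) did not pass the test (adjusted p = 0.107), and DESeq2's Wald test did call it (adjusted p = 0.00678). Without preleukemic_40 the log2 change was 8.73 (adjusted p = 0.0450, edgeR), against the other 2 preleukaemic libraries, which held 6 and 17 counts.

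In model 2 Slc2a1 stood at 367, 46.4, 4.53 and 0.148 CPM in the preleukaemic libraries, and at 98.3, 0.482 and 63.9 CPM in the leukaemic libraries. It was thus near absent in some libraries of both stages and high in others. Over both models Slc2a1 was under 1 CPM in 5 of 17 libraries and over 100 CPM in 4. Among the 10 genes its range was the widest, 2473-fold from preleukemic_837 to preleukemic_633, both of model 2. Pkm followed at 24.6-fold when Pgk1 is left aside. That range ran from preleukemic_77 of model 1 to preleukemic_633 of model 2, so it also holds the difference between the models. In model 2 the log2 change of Slc2a1 was -0.95 with a 95% interval from -5.65 to 3.76, so its spread left a large change in either direction within the interval. Without preleukemic_633 the change was 1.67.

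Hk1 codes for hexokinase 1, the form that most tissues use (chr10:62268855-62379908, minus strand). Its levels were 938, 1016, 1085 and 1038 CPM in the TgSpi1FA+/+ preleukaemic libraries of model 1. They were 1290.2, 915 and 920.7 CPM in the TgSpi1FA-/- preleukaemic libraries. The leukaemic libraries had 645, 507 and 239 CPM. All 3 leukaemic libraries lay below all 7 preleukaemic libraries of model 1, and leukemic_39 was the lowest. In model 2 Hk1 stood at 709, 537, 448 and 729 CPM in the preleukaemic libraries, and at 299, 229.8 and 259 CPM in the leukaemic libraries. Here too every leukaemic library lay below every preleukaemic one.

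The log2 change of Hk1 was -1.17 ± 0.31 (SE, adjusted p = 0.0391) in model 1 and -1.21 ± 0.23 (adjusted p = 0.162) in model 2. Averaged over both models in a fit of all 17 libraries, Hk1 fell by 1.16 ± 0.20 on the log2 scale (adjusted p = 0.00635), which makes it 1 of 10 genes called beside 8.9% of the 14597 tested. This averaged fall kept passing the test without any of the 13 compared libraries in turn, with log2 changes from -1.32 to -1.0 and adjusted p from 0.00297 to 0.0242. Within model 1 alone the call was less firm, since it was kept without leukemic_26 and leukemic_39 (adjusted p = 0.0188 and 0.0490) and lost without leukemic_28, preleukemic_40, preleukemic_77 or preleukemic_224 (adjusted p from 0.0749 to 0.106).

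Hk2 codes for hexokinase 2, the inducible form found in muscle, fat and many tumours (chr6:82725025-82774454, minus strand). It stood at 94.8, 81.2, 94.3 and 68.3 CPM in the TgSpi1FA+/+ preleukaemic libraries. The TgSpi1FA-/- preleukaemic libraries had 48.8, 87.0 and 58.7 CPM. The leukaemic libraries had 163, 147 and 234 CPM, all above the 7 preleukaemic libraries. The log2 change was 1.48 ± 0.26 (SE, adjusted p = 0.0118), and it was called without each of the 6 libraries in turn (log2 change from 1.28 to 1.77, adjusted p from 0.0123 to 0.0492). In model 2 Hk2 stood at 279, 126, 73.5 and 59.6 CPM in the preleukaemic libraries, and at 85.3, 100.3 and 83.6 CPM in the leukaemic libraries. The leukaemic libraries of model 2 lay inside the range of the preleukaemic ones, and the log2 change was -0.58 (95% interval from -1.77 to 0.61). Without preleukemic_633 it was 0.06.

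Levels of different genes can be set side by side only per length, as RPKM, which is CPM divided by the exon length in kilobases. On that scale Hk1 was 11.2 times Hk2 in the TgSpi1FA-/- preleukaemic group, with a mean of 122 ± 25.2 against 10.9 ± 3.32 RPKM (SD, n = 3). In the TgSpi1FA-/- leukaemic group it was 1.79 times Hk2, at 54.3 ± 24.2 against 30.4 ± 7.79 RPKM (SD, n = 3). In model 2 the factor was 3.15 in the preleukaemic and 2.05 in the leukaemic group. Hk3, a further hexokinase, had at most 2 counts in any library. The gene counts do not separate transcripts from different start sites.

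The 300 bases from 250 before to 50 after the RefSeq starts (build GRCm38.p6) of both hexokinase genes are printed here because Hk1 and Hk2 moved in opposite directions in model 1. Capitals mark ACGTG, the core letters of the hypoxia response element, or its reverse complement CACGT. The Hk1 windows lie at chr10:62379859-62380158 and chr10:62340372-62340671 and that of Hk2 at chr6:82774405-82774704, all on the minus strand.
Hk1 upstream start: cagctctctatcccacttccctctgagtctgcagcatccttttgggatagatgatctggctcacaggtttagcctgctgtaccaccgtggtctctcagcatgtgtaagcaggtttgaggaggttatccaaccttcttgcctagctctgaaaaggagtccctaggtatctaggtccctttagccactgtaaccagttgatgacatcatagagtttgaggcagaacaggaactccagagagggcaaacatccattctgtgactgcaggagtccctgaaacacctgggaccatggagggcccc
Hk1 inner start: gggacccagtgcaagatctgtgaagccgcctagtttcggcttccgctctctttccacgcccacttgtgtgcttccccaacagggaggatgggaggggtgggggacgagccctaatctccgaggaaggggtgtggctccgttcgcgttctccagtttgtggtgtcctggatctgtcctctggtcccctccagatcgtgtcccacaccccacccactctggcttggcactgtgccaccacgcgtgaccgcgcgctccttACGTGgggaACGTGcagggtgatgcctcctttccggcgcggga
Hk2 start: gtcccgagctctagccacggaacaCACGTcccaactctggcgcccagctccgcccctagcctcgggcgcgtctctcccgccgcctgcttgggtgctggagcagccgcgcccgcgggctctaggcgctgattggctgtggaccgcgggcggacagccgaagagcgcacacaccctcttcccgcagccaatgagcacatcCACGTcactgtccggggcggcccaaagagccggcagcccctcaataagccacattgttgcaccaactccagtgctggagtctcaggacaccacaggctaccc
The upstream Hk1 window held no such run, and the inner Hk1 window and the Hk2 window held 2 each.

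Pfkl and Pfkp code for the liver and platelet forms of phosphofructokinase (Pfkl chr10:77986947-78010083 and Pfkp chr13:6579768-6648777, both on the minus strand). Pfkl stood at 123, 106, 73.7 and 97.2 CPM in the TgSpi1FA+/+ preleukaemic libraries. It stood at 84.3, 103 and 122 CPM in the TgSpi1FA-/- preleukaemic libraries. The leukaemic libraries had 243, 138.2 and 224.4 CPM, above all preleukaemic libraries of model 1. The log2 change of Pfkl was 0.97 ± 0.25 (SE, adjusted p = 0.0370). The call was kept without leukemic_28 (adjusted p = 0.0417) and lost without leukemic_26, leukemic_39, preleukemic_40, preleukemic_77 or preleukemic_224 (adjusted p from 0.0681 to 0.104), while the change itself stayed between 0.82 and 1.21. In model 2 Pfkl stood at 538, 229, 371 and 66.6 CPM in the preleukaemic libraries, and at 155, 228 and 218 CPM in the leukaemic libraries. The preleukaemic libraries spanned the leukaemic ones (log2 change -0.59, 95% interval from -1.96 to 0.78).

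Pfkp ranged over the same levels at every stage. In model 1 it lay between 146 and 347 CPM in the TgSpi1FA+/+ preleukaemic, between 112 and 345 CPM in the TgSpi1FA-/- preleukaemic and between 128 and 317 CPM in the TgSpi1FA-/- leukaemic libraries. In model 2 the ranges were 124 to 470.0 CPM and 205 to 444 CPM. The groups overlapped in both models, and the log2 change was -0.24 in model 1 (95% interval from -1.33 to 0.85). In model 2 it was -0.08, with an interval from -1.15 to 0.99.

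Aldoa codes for aldolase A, which splits fructose bisphosphate (chr7:126795234-126800751, minus strand). It lay between 870 and 1079 CPM in the TgSpi1FA+/+ preleukaemic libraries and stood at 1049, 818 and 964 CPM in the TgSpi1FA-/- preleukaemic libraries. The leukaemic libraries had 1606, 1163 and 1219 CPM, above all preleukaemic libraries of model 1. The log2 change of 0.49 ± 0.16 (SE) did not pass the test (adjusted p = 0.0706) and, at 1.41-fold, lay under the fold change required. In model 2 Aldoa lay between 1157 and 3555 CPM in the preleukaemic and between 2284 and 3088 CPM in the leukaemic libraries. These groups overlapped (log2 change 0.16, 95% interval from -0.71 to 1.03).

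Pgk1 codes for phosphoglycerate kinase 1 (chrX:106187100-106203699, plus strand) and has near-identical copies elsewhere in the genome, so its count depends on how reads with several matches were handled. It held 222 to 910 counts per library in the model 1 table and 13167 to 62962 in the model 2 table. In the second table, which held 7 of the same model 1 mice, its CPM was between 13.9 and 83.7 times that in the model 1 table. The other 9 genes had median ratios between 0.530 and 1.44. Gapdh, the glycolytic enzyme before Pgk1, showed the same pattern with 100 to 278 against 32954 to 154920 counts. The tables were normalized separately, so these ratios also hold their scaling. Levels of Pgk1 in the model 1 table are therefore uncertain. In that table Pgk1 stood at 9.74, 7.85 and 7.46 CPM in the TgSpi1FA-/- preleukaemic libraries and at 24.9, 10.1 and 12.5 CPM in the leukaemic libraries. The leukaemic libraries were higher but the difference did not pass the test (log2 change 0.92 ± 0.38 SE, adjusted p = 0.129). In model 2 Pgk1 had 1514, 1045, 1674 and 326 CPM in the preleukaemic libraries and 1615, 1473 and 1750.3 CPM in the leukaemic libraries. The groups overlapped (log2 change 0.50, 95% interval from -0.62 to 1.62).

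**Figure D2:**
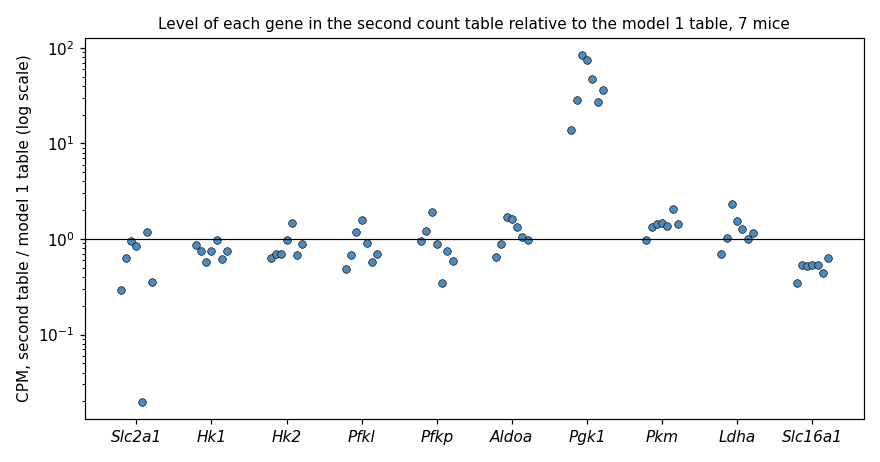
CPM of each gene in the second deposited table divided by its CPM in the model 1 table (log axis), 1 point for each of the 7 mice in both tables, the line marking equal levels. Pgk1 lies between 13.9 and 83.7, and 1 library of Slc2a1, labelled preleukemic_445, lies at 0.0196.

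Pkm codes for pyruvate kinase M, whose isoforms PKM1 and PKM2 arise by splicing and are not told apart in gene counts (chr9:59656368-59679375, plus strand). It stood at 544, 593, 593 and 538 CPM in the TgSpi1FA+/+ preleukaemic libraries. The TgSpi1FA-/- preleukaemic libraries had 529, 153 and 289 CPM, each below all TgSpi1FA+/+ libraries. The leukaemic libraries had 1075, 972 and 1331 CPM, above every preleukaemic library of model 1. The log2 change from TgSpi1FA-/- preleukaemic to leukaemic was 1.80 ± 0.37 (SE, adjusted p = 0.0188). It stayed between 1.47 and 2.34 with each library left out, and the call was kept without leukemic_26, preleukemic_40 or preleukemic_77 and missed the threshold without leukemic_28, leukemic_39 or preleukemic_224 (adjusted p = 0.0508, 0.0514 and 0.0726). In model 2 Pkm stood at 3774, 1418, 2208 and 688 CPM in the preleukaemic libraries, and at 1204, 1597 and 1225 CPM in the leukaemic libraries. The preleukaemic libraries lay on both sides of the leukaemic ones (log2 change -0.59, 95% interval from -1.79 to 0.61). Pklr, the other pyruvate kinase gene, lay between 71.8 and 287 CPM in TgSpi1FA-/- preleukaemic and between 29.5 and 91.2 CPM in leukaemic libraries. In model 2 its ranges were 21.9 to 305 CPM and 1.69 to 70.6 CPM, so Pklr was lower on average in leukaemic cells, with overlap.

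Ldha codes for the lactate dehydrogenase subunit that favours the making of lactate (chr7:46841475-46855627, plus strand). It stood at 902, 994, 1041 and 997 CPM in the TgSpi1FA+/+ preleukaemic libraries. The TgSpi1FA-/- preleukaemic libraries had 993, 981 and 812.4 CPM, and the leukaemic libraries had 1818, 1245 and 1548 CPM. All 3 leukaemic libraries were above all 7 preleukaemic ones. The log2 change was 0.73 ± 0.16 (SE, adjusted p = 0.0213). It was kept without leukemic_26, leukemic_28 or preleukemic_40 and missed the threshold without leukemic_39, preleukemic_77 or preleukemic_224 (adjusted p = 0.0526, 0.0502 and 0.0786). In model 2 the preleukaemic libraries had 4195, 3012, 4499 and 1181 CPM and the leukaemic libraries had 3625, 2373 and 3992 CPM. These groups overlapped (log2 change 0.05, 95% interval from -0.99 to 1.09). Ldhb, which codes for the other main subunit, had at most 1 count in 16 of the 17 libraries and 17 counts in leukemic_39.

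The windows around the starts of Pfkl, Pkm and Ldha are printed for comparison with those of the hexokinases, since these genes rose together with Hk2 in model 1. Pkm and Ldha have 2 windows each, of which the one that holds ACGTG is shown, and the other held 0. The printed windows lie at chr10:78009758-78010057 on the minus strand and at chr9:59656977-59657276 and chr7:46845554-46845853 on the plus strand, and capitals mark the same letters.
Pfkl start: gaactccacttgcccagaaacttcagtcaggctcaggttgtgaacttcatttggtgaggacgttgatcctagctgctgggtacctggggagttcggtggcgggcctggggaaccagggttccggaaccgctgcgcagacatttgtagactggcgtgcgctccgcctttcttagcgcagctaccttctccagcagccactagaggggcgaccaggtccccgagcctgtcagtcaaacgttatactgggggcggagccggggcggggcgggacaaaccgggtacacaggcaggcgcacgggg
Pkm inner start: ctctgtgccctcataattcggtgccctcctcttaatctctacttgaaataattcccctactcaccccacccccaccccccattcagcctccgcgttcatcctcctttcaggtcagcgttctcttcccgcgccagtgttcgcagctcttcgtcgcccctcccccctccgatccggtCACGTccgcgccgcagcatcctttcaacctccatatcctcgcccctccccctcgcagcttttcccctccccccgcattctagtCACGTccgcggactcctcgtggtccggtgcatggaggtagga
Ldha upstream start: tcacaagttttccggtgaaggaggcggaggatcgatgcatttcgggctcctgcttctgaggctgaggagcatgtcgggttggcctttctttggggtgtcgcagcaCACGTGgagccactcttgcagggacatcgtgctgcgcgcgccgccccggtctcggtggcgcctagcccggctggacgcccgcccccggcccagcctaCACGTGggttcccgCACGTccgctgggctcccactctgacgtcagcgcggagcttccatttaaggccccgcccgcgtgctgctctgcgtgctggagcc
The Pfkl window held no ACGTG on either strand, the printed one of Pkm held 2 and that of Ldha held 5, of which 4 came from 2 copies of CACGTG, a palindrome that counts on both strands. ACGTG was found in at least 1 window of 8 of the 10 genes and in 9 of their 15 windows. Over all RefSeq windows of this length it was found in 21.8% of 27025 genes and in 19.6% of 32851 windows. CACGTG, the E-box, was found in 2 of the 10 genes, Ldha and Slc16a1, against 8.09% of all genes. Of the letters bound by GATA factors, AGATAA and AGATAG were found in 0 of the 10, TGATAA in 3 and TGATAG in 1, against 12.7%, 10.3%, 10.4% and 8.33% of all genes. GAGGAAGT, a run bound by PU.1, was found in 0 of the 10 and in 3.69% of all genes. These are letters in a window and not measured binding sites.

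Slc16a1 codes for the lactate transporter MCT1 (chr3:104638668-104658462, plus strand). In model 1 it lay between 308 and 377 CPM in the TgSpi1FA+/+ preleukaemic libraries, at 228, 319 and 276 CPM in the TgSpi1FA-/- preleukaemic libraries and at 349, 279.5 and 266 CPM in the leukaemic libraries. The groups overlapped, and the log2 change of 0.12 had a 95% interval from -0.24 to 0.48. In model 2 Slc16a1 stood at 233, 305, 248 and 195 CPM in the preleukaemic libraries and at 289, 509.9 and 297 CPM in the leukaemic libraries. The log2 change of 0.57 did not pass the test (95% interval from -0.03 to 1.18, adjusted p = 0.269). Over all 17 libraries Slc16a1 had the narrowest range of the 10 genes, 2.61-fold. It lies on the same chromosome as Nras. Of the 20 tested genes within 1 Mb of Slc16a1 in model 1, 9 rose and 1 fell, beside 913 and 869 of all 13393 genes. Their median log2 change was 1.22. Nras stood at 274, 928 and 1077 CPM in the leukaemic libraries and at 230.1, 195 and 142 CPM in the TgSpi1FA-/- preleukaemic libraries. The paper reports an Nras mutation in the mice of leukemic_28 and leukemic_39 and a Kit mutation in that of leukemic_26. The part of these mutations in the levels was not tested. In leukemic_28 and leukemic_39 Slc16a1 itself lay within the range of the TgSpi1FA-/- preleukaemic libraries.

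**Figure D3:**
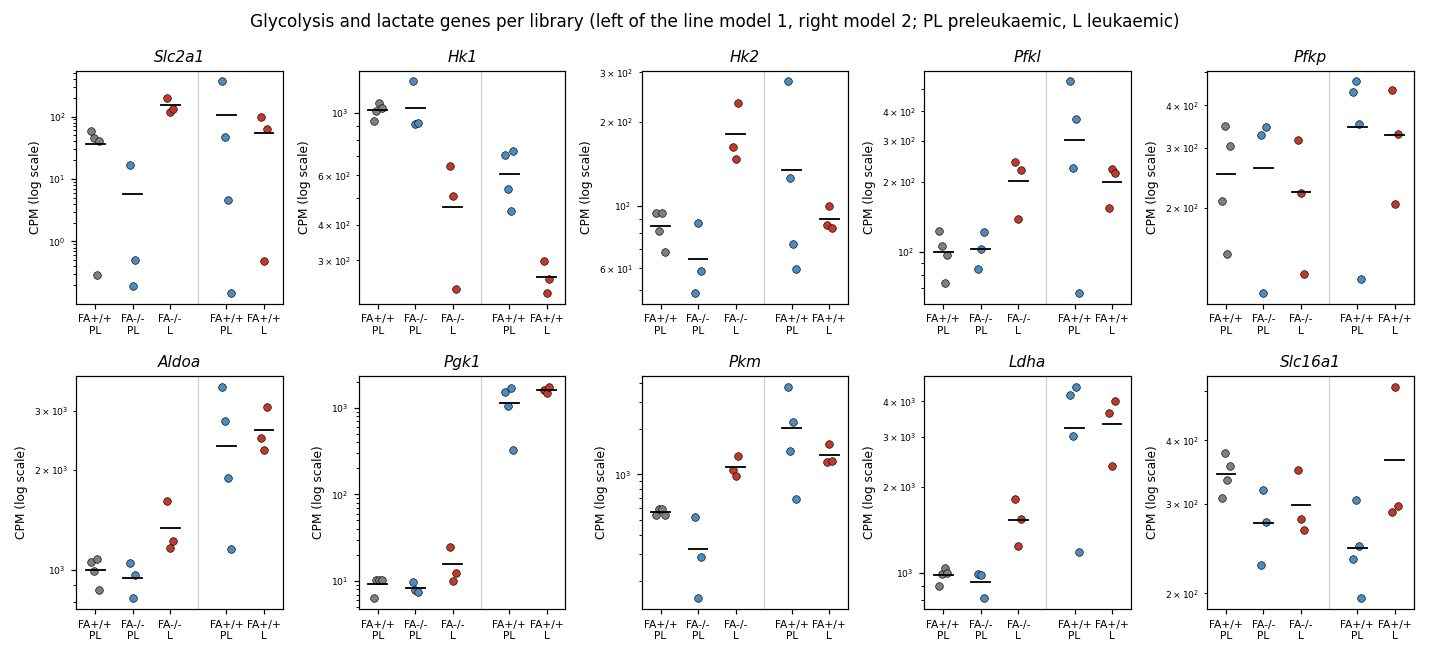
CPM of each of the 10 genes (log axis) in every library, 1 point per mouse and a line at the group mean, with the 3 groups of model 1 left of the grey line and the 2 of model 2 right of it. Hk1 is lower in the leukaemic groups on both sides, whereas Hk2, Pfkl, Pkm and Ldha are higher in leukaemic cells on the left and overlap on the right.

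Per length, Aldoa and Ldha led the order in model 1 with means over the 10 libraries of 372 ± 75.8 and 342 ± 95.5 RPKM (SD). Pkm at 132 ± 72.0, Hk1 at 101 ± 36.3 and Slc16a1 at 69.9 ± 10.5 RPKM followed. Aldoa and Ldha, Pkm and Hk1, and Hk1 and Slc16a1 each lay closer together than the SD of the higher gene. Pfkl, Pfkp, Hk2 and Slc2a1 were at means between 17.5 and 19.7 RPKM with SDs between 6.98 and 19.4, so their order could not be told from the spread. In model 2 Ldha, Aldoa, Pgk1 and Pkm had means of 987 ± 354, 847 ± 272, 598 ± 224.3 and 346 ± 202 RPKM (SD, 7 libraries), and Ldha and Aldoa, and Aldoa and Pgk1, lay closer together than the SD of the higher gene. Slc16a1 and Hk1 were at 67.1 ± 23.0 and 53.8 ± 24.4 RPKM. Pfkl, Pfkp, Slc2a1 and Hk2 were at means between 19.3 and 38.6 RPKM with SDs between 9.74 and 37.3, so their order could not be told from the spread. These SDs pool both stages, between which Hk1 differed. In the leukaemic libraries of model 2 Hk1 was at 35.1, 26.9 and 30.3 RPKM, each below Slc16a1 at 65.4, 115 and 67.1 RPKM. In the preleukaemic libraries of model 2 their order was mixed. In model 1 Hk1 lay above Slc16a1 in every preleukaemic library and below it in every leukaemic library.

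Between TgSpi1FA-/- and TgSpi1FA+/+ preleukaemic cells of model 1, none of the 10 genes passed the test, which called 0.00747% of the 13393 genes. At an unadjusted p under 0.05 there were 1 of 10 genes, Pkm, and 8.65% of all genes tested, and DESeq2's Wald test called 0 of 10 and 236 genes. The groups of Pkm, and of no other of the 10, did not overlap, beside 8.53% of all genes tested. Pkm had a mean of 324 ± 190.5 CPM (SD, n = 3) against 567 ± 30.0 CPM (SD, n = 4) and a log2 difference of -0.81 ± 0.34 (SE, adjusted p = 0.558). Without preleukemic_445 the test again called 0 of the 10 and 1 gene in all, and the difference of Pkm was -0.79 (adjusted p = 0.879). The log2 differences of Hk1, Pfkl, Aldoa and Ldha were 0.03, 0.04, -0.08 and -0.08, with 95% intervals within -0.62 and 0.68. The log2 difference of Hk2 was -0.39 (from -0.92 to 0.15) and that of Slc16a1 -0.33 (from -0.66 to 0.01). The interval of Slc2a1 was wide, from -6.24 to 0.94.

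TgSpi1FA-/- leukaemic cells set against TgSpi1FA+/+ preleukaemic cells, which share the leukaemic libraries with the first comparison, gave 4 of 10 genes called beside 7.01% of 13393. Hk2 rose by 1.10 ± 0.23, Pfkl by 1.01 ± 0.23 and Ldha by 0.64 ± 0.14 on the log2 scale (SE, adjusted p = 0.0294, 0.0363 and 0.0338), and Hk1 fell by 1.137 ± 0.30 (adjusted p = 0.04999, just under the threshold). Pkm differed by 0.99 ± 0.33 and did not pass (adjusted p = 0.0961). Without the library labelled preleukemic_445 none of the 10 passed, the adjusted p of these 4 genes being between 0.0849 and 0.112, and none passed without leukemic_28, leukemic_39, preleukemic_451 or preleukemic_479 either. In the second table, with the same 7 mice, none of the 10 passed, with log2 differences of 0.54 for Hk2, 0.66 for Pfkl, 0.75 for Ldha and -1.11 for Hk1 (adjusted p = 0.381, 0.551, 0.363 and 0.239).

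A contrast over all 17 libraries tested whether the leukaemic change differed between model 1 and model 2. None of the 10 genes passed this test, beside 4.61% of the 14597 genes tested, while 3 of 10 were under an unadjusted p of 0.05, beside 25.8% of all genes tested. Pkm and Hk2 came nearest, with differences, model 1 minus model 2, of 2.37 ± 0.66 and 2.04 ± 0.59 on the log2 scale (SE, adjusted p = 0.0528 and 0.0589). DESeq2's Wald test called both (adjusted p = 0.00859 and 0.0134). Without preleukemic_837, which was the lowest preleukaemic library of model 2 for both, edgeR called Pkm, Hk2 and Pfkl (adjusted p = 0.0261, 0.0332 and 0.0337), and without preleukemic_812 it called Hk2 (adjusted p = 0.0322). For Hk1 the difference was 0.03 with a 95% interval from -0.80 to 0.85. Each model changed strain and library protocol too, but both stages within a model shared them.

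The ratio of 2 related genes within a library does not depend on scaling and was tested by exact permutation, two-sided, with the leukaemic and preleukaemic labels exchanged within models. The log2 ratio of Hk2 to Hk1 counts was -4.72, -3.39 and -3.97 in the TgSpi1FA-/- preleukaemic libraries and -1.99, -1.79 and -0.03 in the leukaemic libraries. In model 2 it was -1.35, -2.09, -2.61 and -3.61 in the preleukaemic libraries and -1.81, -1.20 and -1.63 in the leukaemic libraries. The groups were apart in model 1 and overlapped in model 2 through preleukemic_633. The ratio was higher in leukaemic cells by 2.76 in model 1 (p = 0.1, the smallest that 3 against 3 libraries can give in an exact test) and by 0.87 in model 2 (exact p = 0.2, the smallest possible being 0.0571). Averaged over both models it was higher by 1.82 (exact p = 0.01 over 700 arrangements, 0.05 after adjustment over the 5 ratios, at and not under the threshold). With 5 in place of 0.5 added to each count the average was 1.81 and the adjusted p was 0.0429.

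**Figure D4:**
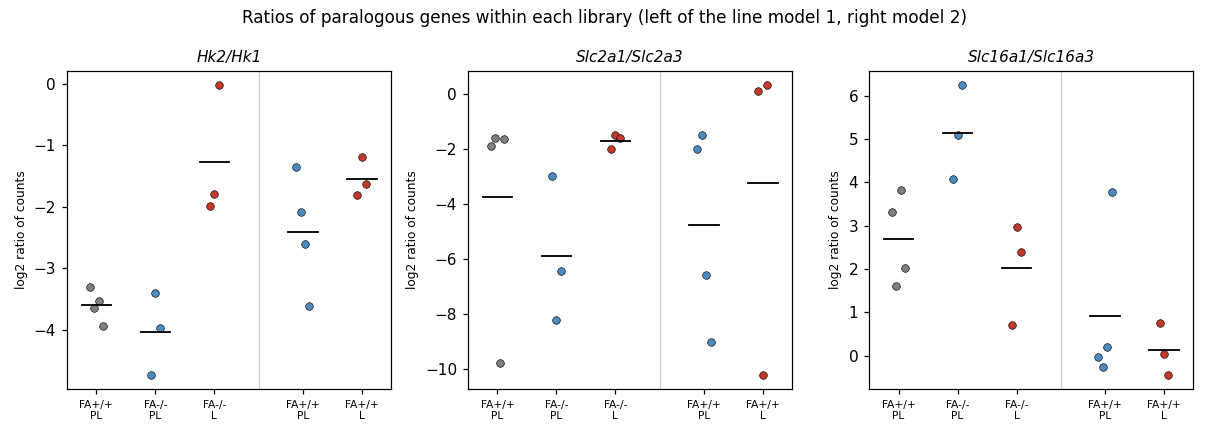
Log2 ratio of counts of paired genes within each library, 1 point per mouse and a line at the group mean, with model 1 left and model 2 right of the grey line. The Hk2 to Hk1 ratio separates leukaemic from TgSpi1FA-/- preleukaemic libraries on the left, and the Slc2a1 to Slc2a3 ratio falls under -6 in 6 libraries of 4 groups.

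The ratio of Slc16a1 to Slc16a3, which codes for the lactate exporter MCT4, was lower in leukaemic cells by 3.12 in model 1 (exact p = 0.1) and by 0.79 in model 2 (exact p = 0.771). The average of -1.96 gave an exact p of 0.0429, or 0.107 after adjustment. Slc2a1 to Slc2a3, which codes for the glucose transporter GLUT3, had an average difference of 2.84 (exact p = 0.174, adjusted 0.290), and Pfkp to Pfkl one of -0.42 (exact p = 0.411, adjusted 0.514). Ldha to Ldhb had -0.30 (exact p = 0.794, adjusted 0.794) and rests on the few Ldhb counts.

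Of the 6 genes tested in the list of other transporters and lactate dehydrogenases, 2 rose and 1 fell in model 1. In this comparison 13.3% of all genes tested were called. Slc2a3 rose from between 44.8 and 134 CPM in TgSpi1FA-/- preleukaemic to between 338 and 806 CPM in leukaemic libraries (log2 change 2.69, adjusted p = 0.0157). Slc16a3 rose from between 3.63 and 13.5 CPM to between 35.7 and 215 CPM (log2 change 3.51, adjusted p = 0.0365), while its TgSpi1FA+/+ preleukaemic libraries lay between 23.7 and 123 CPM. Slc2a8, an intracellular glucose transporter, fell by 1.142 on the log2 scale (adjusted p = 0.0391). Bsg, which codes for the chaperone of MCT1 and MCT4, had a log2 change of 0.42 and did not pass (adjusted p = 0.271). In model 2 none of 6 passed, beside 0% of all genes tested. Averaged over both models Slc16a3 rose by 2.174 (adjusted p = 0.0448), 1 of 7 tested, beside 8.9% of all genes tested.

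Of 13 other glycolysis genes tested in model 1, only Pgam1, phosphoglycerate mutase, was called (log2 change 1.68, adjusted p = 0.0439), beside 13.3% of all genes tested. Its CPM in the second table was between 3.09 and 9.85 times that in the model 1 table, so its count is uncertain in the same way as that of Pgk1. Tpi1, Eno1 and Gapdh had log2 changes of 0.70, 0.75 and -0.40 and did not pass. For Eno1 the same ratio lay between 4.51 and 8.50 and for Gapdh between 118 and 278. Their counts in model 1 are thus uncertain too. The median over the 13 other glycolysis genes was 0.45, with 8 above and 5 below 0. Averaged over both models, Pfkm, the muscle form of phosphofructokinase, fell by 0.94 (adjusted p = 0.0232).

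Among 14 genes that control the flux through glycolysis, 3 rose in model 1 and none fell, beside 13.3% called of all genes tested. Pfkfb4, an enzyme that makes and breaks the activator of phosphofructokinase, rose by 2.88 on the log2 scale and Pfkfb1 by 1.43 (adjusted p = 0.0365 and 0.0482). Arnt, the partner of HIF1A in the hypoxia response, rose by 1.64 (adjusted p = 0.00109), from between 97.3 and 116 CPM to between 315 and 345 CPM. Hif1a and Myc had log2 changes of 0.39 and -0.25 and did not pass (adjusted p = 0.436 and 0.480). Of 13 hypoxia-induced genes outside glycolysis, Vegfa and Bnip3 rose by 1.29 and 1.62 (adjusted p = 0.0267 and 0.0492). These are 2 of 13 called, beside 13.3% of all genes tested. The log2 change was above 0 for 9 of 13, and the median was 0.25. In model 2 none of 12 flux control genes and none of 13 hypoxia-induced genes passed, beside 0% of all genes tested. Averaged over both models, Arnt and the hypoxia-induced Higd1a rose by 0.84 and 0.81 (adjusted p = 0.0138 and 0.0483).

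The pentose phosphate pathway branches off glycolysis to make NADPH and ribose. Of 7 of its genes, 2 fell in model 1, beside 13.3% called of all genes tested. None passed in model 2, beside 0% of all genes tested. The genes that fell in model 1 were Taldo1 and Rpia, by 1.26 and 0.84 on the log2 scale (adjusted p = 0.0127 and 0.0194). The median log2 change of the 7 was -0.47 in model 1. Averaged over both models, Tkt and Taldo1, the transketolase and transaldolase of the pathway, fell by 0.60 and 0.70 (adjusted p = 0.00845 and 0.0288). Against TgSpi1FA+/+ preleukaemic cells, G6pdx, the entry enzyme of the pathway, fell by 0.70 along with Rpia and Taldo1 (adjusted p = 0.0430). Of 13 genes for the entry of pyruvate into mitochondria, 1 passed in model 1, beside 13.3% of all genes tested. This was Pcx, pyruvate carboxylase, which fell by 1.68 (adjusted p = 0.0402) and by 1.52 averaged over both models (adjusted p = 0.0329). The median over these 13 genes was -0.07.

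For each of the 10 genes, the gene outside the list with the most similar pattern over the 17 libraries was sought among 8549 genes with a mean of at least 10 CPM, by Pearson's r of log2 CPM centred on the mean of each model. Libraries of a model share strain and protocol, and each model holds both stages, so r is a description. Aldoa lay closest to Bnip3 (r = 0.876) and Pgk1 to P4ha1 (r = 0.921), both from the hypoxia-induced list. Ldha lay closest to Tpi1 (r = 0.911) and Pfkl to Eno1 (r = 0.879), both glycolytic enzymes, though the Eno1 counts of model 1 are uncertain. The nearest genes of the others were Lmo4 for Slc2a1 (r = 0.912), Taok3 for Hk1 (r = 0.974), Rragd for Hk2 (r = 0.899), Psmg2 for Pfkp (r = 0.786), Egfl7 for Pkm (r = 0.908) and Rpap2 for Slc16a1 (r = 0.870).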

How the data were processed

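RNA-seq libraries of 17 mice, by the labels, were analysed. Per the labels, polyadenylated RNA was prepared with a stranded kit, and the submitters' processing notes name bcl2fastq 2.17.1.14, STAR 2.5.3a, HTSeq 0.6.1p1 and mouse build mm10 (GRCm38). The deposited values are raw read counts per Ensembl gene, made by the authors without normalization. A second deposited table held counts of 7 of the model 1 mice and was used only as an alternative, and a copy of the model 2 table was not used. How reads with several matches were counted is not given in the sources used here. Replicates were not pooled, and 0 columns belonged to other samples.

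Counts were filtered with filterByExpr, scaled by TMM and fitted by group with the quasi-likelihood test of edgeR 4.0.16 (R 4.3.3), with model 1 and model 2 fitted apart, and adjusted by Benjamini-Hochberg over all genes tested. A call required a fold change of at least 1.5 with an adjusted p under 0.05. SEs are the log2 change divided by the square root of the F statistic. The averaged and differing changes came from a fit of 17 libraries over the genes in both tables. Positions and exon lengths came from GENCODE M21, which held 99.8% of the identifiers of the model 1 table. Totals per library are given above, and the CPM and RPKM values were computed here. The tests were tried on simulated data.

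The 10 genes and the lists were chosen with earlier results of these data known. Named were all 10 genes, genes of the other lists called in any comparison or used in a ratio, for a list with no call its 2 most abundant genes, and the most similar genes. Tpi1, Eno1, Gapdh, Pklr, Hif1a, Myc, Hk3, Bsg, Nras and the cell markers given by level were named after their values were seen. Alternatives were other scalings, filters and empirical Bayes settings, DESeq2 1.42.0, fewer groups, the second table, another offset and each library left out. Leaving preleukemic_445 out of the first comparison and out of the second table was chosen after seeing the data.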

Additional observations from a re-analysis of the deposited data

Results flagged for a closer look

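Of 30 sets of 4 libraries (10 genes and 5 ratios in 2 groups), 4 held a library farther from the rest than Dixon's 95% limit allows. Chance would flag about 1 in 20 if the libraries of a group were independent. In the preleukaemic group of model 2, Slc2a1 stood at 367 CPM in preleukemic_633, far above the others, and the log2 ratio of Slc16a1 to Slc16a3 stood at 3.77 in preleukemic_837. In the TgSpi1FA+/+ preleukaemic group of model 1, Pgk1 stood at 6.30 CPM in preleukemic_138, below the others, and the log2 ratio of Slc2a1 to Slc2a3 stood at -9.81 in preleukemic_451. This group holds the near-alike preleukemic_445 and preleukemic_479, so the limit may not hold for it. In the second table Pgk1 stood at 471 CPM in preleukemic_138, inside the 279 to 486 CPM of the others. Slc2a1 was there low in preleukemic_445 too, at 0.888 CPM. By the contrast over all 17 libraries, 2 of 14 tested genes of the flux control list passed for a difference between the models. Beside them stand 4.61% of all genes tested. The difference, model 1 minus model 2, was 3.45 on the log2 scale for Pfkfb4 (adjusted p = 0.0477) and 1.64 for Arnt (adjusted p = 0.0345), both by edgeR. With each compared library left out, this contrast called between 1 and 1359 genes. Pfkfb4 and Arnt were not followed through those fits.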

How the results depend on the processing

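No paired analysis was possible because the groups share no replicate numbers. With each library left out in turn, the 10 genes called numbered 1 to 4 between TgSpi1FA-/- leukaemic and preleukaemic cells, 0 to 3 between TgSpi1FA-/- leukaemic and TgSpi1FA+/+ preleukaemic cells, 0 to 3 for the difference between models and 1 to 2 for their average, and all genes called ranged from 414 to 2319, 53 to 1911, 1 to 1359 and 608 to 1822. For the preleukaemic comparison and model 2 all genes called ranged from 1 to 16 and from 0 to 1. DESeq2 called 3067 genes in the first of these comparisons, 2245 in the second, 2002 for the difference, 2056 for the average, 236 between the preleukaemic groups and 478 in model 2, with 2 of the 10 genes for the difference and 1 in model 2. With no filter on low counts, 4 genes were called between the preleukaemic groups and 279 for the difference. Scaling by total count, or a minimum of 1 CPM in 3 libraries, each called 1 of the 10 genes for the difference. Fitting only the compared groups called 1 of the 10 between TgSpi1FA-/- stages and 2 against TgSpi1FA+/+ preleukaemic cells. Without preleukemic_445, left out after seeing the data, 3 were called between TgSpi1FA-/- stages. The second table called 0 of the 10 and 267 genes in all, or 0 and 38 without preleukemic_445, and turned the Pfkp difference to 0.86 and 0.76. An offset of 5 gave 1.81 for Hk2 to Hk1 (1.51 to 2.00 with libraries left out), which then passed, and 0.20 for Ldha to Ldhb. Calls of single genes outside the 10 were not tried under these alternatives.

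Leaving out 1 library turned the direction of changes that had not passed the test. Pfkp ranged from -0.58 to 0.064 between TgSpi1FA-/- stages, from -0.20 to 0.41 between preleukaemic groups, from -0.53 to 0.11 for leukaemic against TgSpi1FA+/+ preleukaemic cells, from -0.36 to 0.16 in model 2, from -0.52 to 0.12 for the difference and from -0.32 to 0.0054 for the average. Between preleukaemic groups Hk1 ranged from -0.15 to 0.11, Pfkl from -0.11 to 0.17 and Aldoa from -0.17 to 0.0054. In model 2 Slc2a1 ranged from -1.67 to 1.67, Hk2 from -0.83 to 0.056, Ldha from -0.23 to 0.28 and Aldoa from -0.064 to 0.43. Slc16a1 ranged from -0.0031 to 0.26 between TgSpi1FA-/- stages, the difference of Hk1 from -0.29 to 0.35 and of Pgk1 from -0.084 to 0.69, and Ldha to Ldhb from -0.78 to 0.54. The cause was not tested. Few counts limit what can be said of Hk3, Ldhb and, in 5 libraries, Slc2a1.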

Other observations

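Of the 27 tested genes within 1 Mb of Hk2, 2 rose, 8 fell and the rest did not pass the test in model 1, beside 913 and 869 of all 13393 genes. Their median log2 change was -0.59, while Hk2 rose by 1.48. In model 2, with 27 neighbours tested, none passed, beside 0% of all genes tested, and their median was 0.0023. For Hk1, 1 of 30 neighbours rose and 3 fell in model 1, with a median of 0.01. The cause was not tested.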
